A study of Homo sapiens with 18 samples.

Results

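The lamins, the enzyme ZMPSTE24, the chromatin-binding factor BANF1 and the 5 RecQ helicases are linked to inherited syndromes of premature ageing or to the nuclear structures those syndromes affect. Their transcript levels are described here for NCI-H1299 cells that expressed p53 constructs. The set holds 10 genes of the 18417 measured: LMNA, LMNB1, LMNB2, ZMPSTE24, BANF1, BLM, WRN, RECQL, RECQL4 and RECQL5. The list was chosen with earlier results of these data known. Its rows were then taken by symbol from the probe table, and all 10 genes were measured.

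NCI-H1299 is a non-small cell lung carcinoma line without p53. Cells were transiently transfected with Lipofectamine 2000, and every construct, the control included, was carried by the pIRES-2EGFP vector, which also encodes green fluorescent protein. Fluorescent cells were sorted, and RNA taken 40 hours after transfection was hybridised to Affymetrix Gene arrays. In the first set of arrays, from experiments 0, 4 and 5, which the series describes as independent transfections, the vector was empty, carried wild-type p53 (WTp53), or carried ΔNp53:WTp53, named in the labels for the shortened isoform ΔNp53 and WTp53. The second set, from experiments d, e and f, which are called control experiments, compared the empty vector with WTp53 and with tethered WTp53. Each of the 6 groups has 3 arrays. For the tethered arrays the transfection field names ΔNp53:WTp53 while title and description name tethered p53, and the titles were followed here. Whether experiments d, e and f were separate transfections is not stated, so p-values for that set may measure technical spread only. The model is limited to 1 cell line, in which p53 was supplied from a plasmid and not from its own locus.

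Lamins are intermediate filament proteins that form a meshwork under the inner nuclear membrane. LMNA encodes the A-type lamins A and C by alternative splicing, and LMNB1 and LMNB2 encode the B-type lamins. Prelamin A is farnesylated at its C-terminus and then cleaved by the membrane protease ZMPSTE24. A splice-altering LMNA mutation that leaves a farnesylated product causes Hutchinson-Gilford progeria, and loss of ZMPSTE24 or a recessive BANF1 mutation causes related disorders. RecQ helicases unwind DNA during replication and recombination. Loss of BLM causes Bloom syndrome, loss of WRN causes Werner syndrome, and mutations in RECQL4 cause Rothmund-Thomson syndrome.

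Values are log2 intensities normalised by the authors. Array medians were 4.89 to 4.97 for the first set but 7.01 to 7.07 for the second, and levels are not compared between sets of such different scale. The median standard deviation (SD) of a gene within a group spanned 0.104 to 0.151 log2 units over first-set groups and 0.049 to 0.069 over second-set groups. The ΔNp53:WTp53 array of experiment 0 stood apart from the other 2 of its group for several genes below, and results that rest on it are given without it. Changes are differences of group means in log2 units with the standard error (SE) of a limma fit that shares 1 spread over all 18 arrays, and a change was called at a Benjamini-Hochberg adjusted p under 0.05 over all 18417 genes. Comparisons within a set share arrays: both p53 constructs of a set were set against the same vector arrays, and the contrasts with WTp53 reuse the WTp53 arrays. In bulk RNA, fewer cells that express a gene and less RNA per cell cannot be told apart.

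Of 7 genes listed for the lung carcinoma line, KRT8, KRT18 and VIM had mean log2 values of 9.02, 10.32 and 10.91 in the vector group of the first set, above the array medians. EPCAM, CDH1 and NKX2-1 lay at 2.95, 3.56 and 3.35, below the medians, and no measure of background was available to read these as absent. SFTPC, the surfactant protein C gene of lung epithelium, lay at 4.76. With WTp53 against vector in the first set SFTPC changed most of the 7, by 1.33 ± 0.19 (limma adjusted p = 2.69e-05). With ΔNp53:WTp53 against vector SFTPC rose by 0.60 ± 0.19 (limma adjusted p = 0.0168), less than KRT8. KRT8 rose by 0.86 ± 0.16 with ΔNp53:WTp53, and in the second set by 0.49 ± 0.16 with WTp53 and 0.60 ± 0.16 with tethered WTp53 (limma adjusted p = 2.23e-04, 0.0357 and 0.00662). None of the 7 fibroblast and endothelial markers passed the test in any of the 6 comparisons. At an unadjusted p under 0.05 limma counted 1 of 7 for WTp53 against vector in the first set. There was also 1 of 7 for ΔNp53:WTp53 against WTp53. Over all 18417 genes these counts were 9191 and 5156. Limma counted 0 of 7 in the other 4 comparisons, beside 4411 to 9575 of all genes. The mean of 6 leukocyte markers ranged from 3.95 to 4.10 in the vector arrays of the first set, 4.20 to 4.23 with WTp53 and 3.92 to 4.10 with ΔNp53:WTp53. In the second set these ranges were 6.32 to 6.37, 6.34 to 6.40 and 6.20 to 6.34. Of these 6, TYROBP and CD79A rose with WTp53 against vector in the first set (0.47 ± 0.08 and 0.28 ± 0.06, limma adjusted p = 7.60e-05 and 5.78e-04) and CD79A in the second (0.38 ± 0.06, limma adjusted p = 1.37e-04). CD14 fell with tethered WTp53 against vector (−0.50 ± 0.16, limma adjusted p = 0.0204), and 0 of the 6 passed for ΔNp53:WTp53 against vector. At an unadjusted p under 0.05 limma counted 1 of the 6 there, beside 9575 of all 18417 genes. Against WTp53, CD79A and TYROBP fell with ΔNp53:WTp53 and CD79A with tethered WTp53. The part of these markers in the results was not tested.

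WTp53 was accompanied by a rise of LMNA and by lower RecQ helicase and ZMPSTE24 transcripts in the first set, while the B-type lamins did not pass the test. Of the 10 genes 1 rose and 6 fell, 7 in all, where 43.7% of all genes were called (21.6% higher and 22.1% lower). The median change of the 10 was −0.26, against 0.02 over all genes. With ΔNp53:WTp53 against vector 1 rose and 9 fell, with a background of 46.8% (21.1% higher and 25.7% lower), and the median change was −0.51 against 0.01. WTp53 in the second set raised 1 and lowered 3 of the 10, with a background of 19.6% (10.5% higher and 9.03% lower) and medians of −0.13 and −0.02. With tethered WTp53 against vector 1 rose and 6 fell, with a background of 33.7% (15.1% higher and 18.6% lower) and medians of −0.36 and 0.00. In each of these 4 comparisons LMNA was the gene that rose. The share of lower calls among the 10 was above the background share each time, a description of a list chosen with earlier results known.

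The B-type lamins and BANF1 were lower with ΔNp53:WTp53 than with WTp53, BANF1 with only 1 of its 2 probe sets. The other gave −0.05 ± 0.07 (limma adjusted p = 0.745 over 33297 probe sets). ΔNp53:WTp53 against WTp53 lowered 3 of the 10 (LMNB1, LMNB2 and BANF1) and raised 0, with a background of 14.6% (7.11% higher and 7.51% lower). The median change was −0.16, against −0.01 over all genes. Tethered WTp53 against WTp53 lowered 1 of the 10, LMNB2, with a background of 10.1% (4.24% higher and 5.84% lower) and medians of −0.24 and 0.02. The arrays of the 2 groups did not overlap for 7 of the 10 genes with WTp53 against vector in the first set (48.8% of all genes) and for 9 with ΔNp53:WTp53 against vector (45.6%). They did not for 3 with ΔNp53:WTp53 against WTp53 (20.6%). Second-set numbers were 7 with WTp53 (47.2%) and 10 with tethered WTp53 (52.3%) against vector, and 9 between those constructs (42.6%). The counts of calls between constructs depended on which arrays set the spread. With each set fitted alone they were 0 for ΔNp53:WTp53 and 6 for tethered WTp53, where 449 and 5970 of all 18417 genes were called. Without the ΔNp53:WTp53 array of experiment 0 they were 6 and 5, beside 4816 and 3229 of all genes. The main fit called 2693 and 1855 of all genes, so the calls shifted over all genes and not only among the 10.

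**Figure D1:**
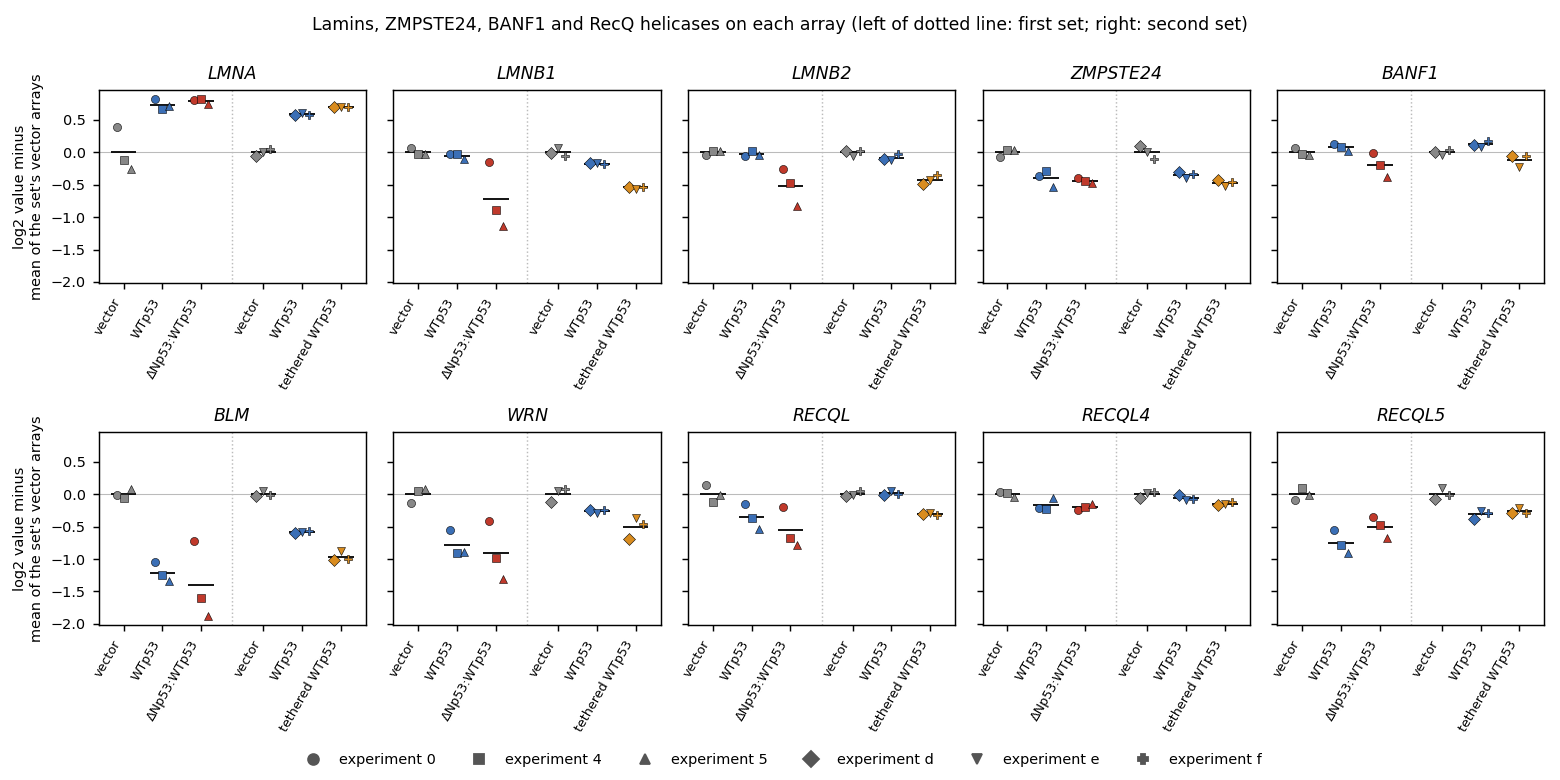
Log2 value of each of the 10 genes on each of 18 arrays minus the mean of its set's vector arrays, with a panel per gene, the first set left and the second right of the dotted line; points are arrays, shaped by experiment, and bars are group means. Every p53 array lies above the vector arrays of its set for LMNA, and the ΔNp53:WTp53 array of experiment 0 lies above the other 2 of its group for LMNB1, BLM and WRN.

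LMNA, the A-type lamin gene, had vector values of 8.44, 7.93 and 7.80 in experiments 0, 4 and 5. It read 8.88, 8.72 and 8.77 with WTp53 and 8.86, 8.88 and 8.80 with ΔNp53:WTp53. All 6 p53 arrays lay above all 3 vector arrays, and the vector array of experiment 0 was the highest of its group. LMNA rose by 0.74 ± 0.11 (SE, n = 3 per group, limma adjusted p = 3.92e-05, 1.67-fold) with WTp53 and by 0.79 ± 0.11 (limma adjusted p = 1.65e-05, 1.73-fold) with ΔNp53:WTp53. The rise in experiment 0 alone was 0.45 and 0.42, smaller than in experiments 4 (0.79 and 0.95) and 5 (0.97 and 1.0). The 2 constructs differed by 0.06 ± 0.11 (95% interval −0.18 to 0.29, limma adjusted p = 0.792), and their arrays overlapped.

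LMNA in the second set read 10.33, 10.39 and 10.43 with vector, 10.96, 10.99 and 10.96 with WTp53, and 11.08 on each of the 3 arrays with tethered WTp53. The 3 groups did not overlap and stood in that order. The rise was 0.59 ± 0.11 (limma adjusted p = 0.00111, 1.5-fold) with WTp53 and 0.70 ± 0.11 (limma adjusted p = 1.16e-04, 1.62-fold) with the tethered construct. Tethered WTp53 exceeded WTp53 by 0.11 ± 0.11 (95% interval −0.12 to 0.34, limma adjusted p = 0.6), which did not pass. The call against vector held in 28 of 28 alternatives for either construct of the first set and in 27 of 27 for either of the second. A value per gene does not separate lamin A from lamin C transcripts, and processing of the protein was not measured.

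LMNB1, a B-type lamin gene whose loss is used as a marker of senescent cells, differed between the constructs of the first set. It read 9.05, 8.95 and 8.95 with vector and 8.95, 8.96 and 8.88 with WTp53 in the first set, a change of −0.05 ± 0.16 (95% interval −0.39 to 0.28, limma adjusted p = 0.823). With ΔNp53:WTp53 it read 8.84, 8.10 and 7.84. All 3 of these lay below both other groups, experiment 0 only narrowly. Against WTp53 LMNB1 fell, with a change of −0.67 ± 0.16 (limma adjusted p = 0.00919, 1.59-fold lower), made up of −0.12, −0.87 and −1.04 in experiments 0, 4 and 5. Against vector the change was −0.73 ± 0.16 (limma adjusted p = 0.00102, 1.65-fold lower).

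LMNB1 in the second set read 9.21, 9.28 and 9.17 with vector, 9.05, 9.05 and 9.04 with WTp53, and 8.69, 8.66 and 8.69 with tethered WTp53. The 3 groups did not overlap, and the tethered arrays were the lowest. The change with tethered WTp53 was −0.54 ± 0.16 against vector (limma adjusted p = 0.0131, 1.45-fold lower). Against WTp53 it was −0.37 ± 0.16 (limma adjusted p = 0.162), which did not pass with the shared spread and had an adjusted p of 1.31e-04 in a limma fit of the second set alone and 0.0012 without the ΔNp53:WTp53 array of experiment 0. The same change of fit worked the other way in the first set, where the fall against WTp53 had an adjusted p of 0.12 in a limma fit of that set alone and 0.235 with only the 2 groups. The first-set fall was called in 26 of 28 alternatives and the second-set one in 4 of 27.

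LMNB2, the other B-type lamin gene, read 9.25, 9.32 and 9.32 with vector, 9.24, 9.31 and 9.26 with WTp53 and 9.04, 8.82 and 8.47 with ΔNp53:WTp53. The ΔNp53:WTp53 arrays lay below the other 6, again with experiment 0 nearest to them. WTp53 changed LMNB2 by −0.03 ± 0.10 (95% interval −0.24 to 0.18, limma adjusted p = 0.861). ΔNp53:WTp53 changed it against WTp53 by −0.49 ± 0.10 (limma adjusted p = 0.00356, 1.41-fold lower), and by −0.20, −0.49 and −0.79 in experiments 0, 4 and 5. In limma fits of the first set alone and of those 2 groups alone the adjusted p was 0.0803 and 0.18.

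The second set gave 11.20, 11.12 and 11.20 with vector for LMNB2, 11.07, 11.06 and 11.14 with WTp53 and 10.69, 10.74 and 10.82 with tethered WTp53. The tethered arrays were again below all others, whereas vector and WTp53 arrays overlapped. The fall with tethered WTp53 was −0.42 ± 0.10 against vector (limma adjusted p = 0.0031, 1.34-fold) and −0.34 ± 0.10 against WTp53 (limma adjusted p = 0.0388, 1.27-fold). The latter was called in 17 of 27 alternatives. It lost its call when any 1 of the 9 second-set arrays was left out (adjusted p 0.0507 to 0.144) and after quantile normalisation (0.0533).

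The fall of LMNB1 relative to WTp53 with ΔNp53:WTp53 minus that with tethered WTp53 was −0.31 ± 0.22, which did not pass (95% interval −0.78 to 0.17, limma adjusted p = 0.52). For LMNB1 the difference was −0.60 (limma adjusted p = 0.00166) without the ΔNp53:WTp53 array of experiment 0 and −0.10 (0.798) without that of experiment 5. LMNB2 gave −0.15 ± 0.14 (95% interval −0.45 to 0.14, limma adjusted p = 0.626), and 0.00 (0.998) without the ΔNp53:WTp53 array of experiment 5. Over the 10 genes limma called 0 of these differences between constructs, with a background of 2.95% (1.54% higher and 1.42% lower). At an unadjusted p under 0.05 limma counted 0 of the 10, beside 3263 of all 18417 genes.

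**Figure D2:**
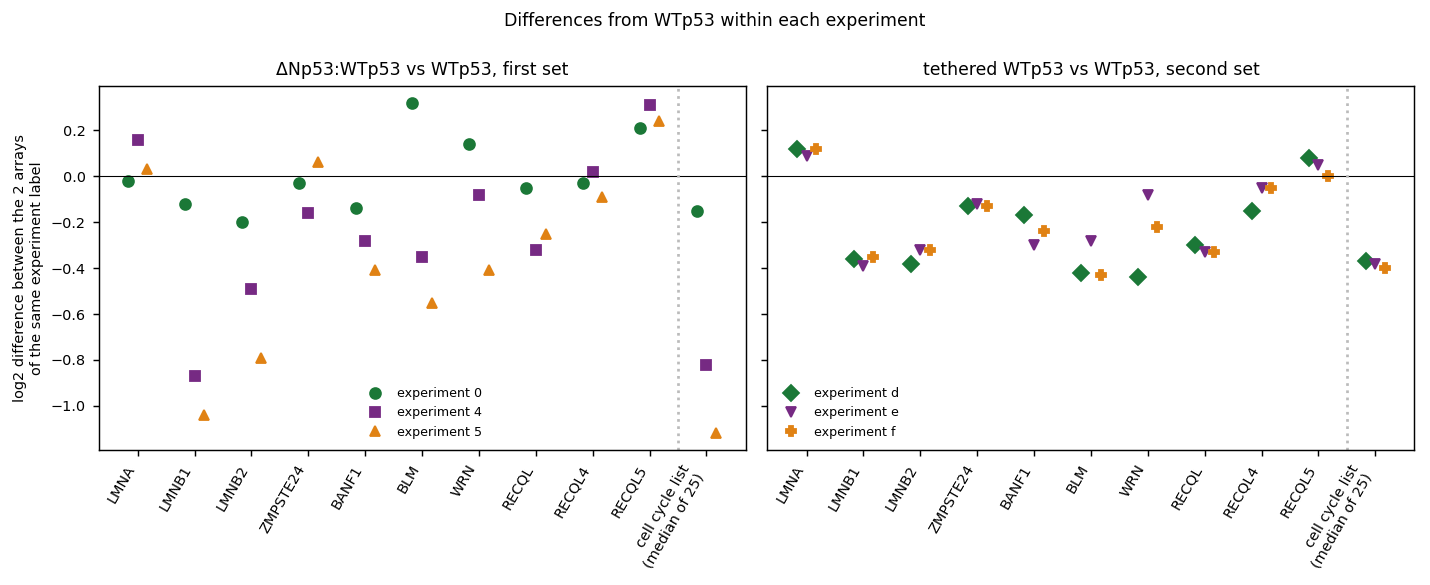
Differences between the p53 construct and WTp53 within each experiment, in log2 units, for ΔNp53:WTp53 (left) and tethered WTp53 (right); each point is 1 pair of arrays, and the last column is the median of 25 cell cycle genes. LMNB1 runs from −0.12 in experiment 0 to −1.04 in experiment 5, while the tethered pairs, matched by letter only, lie between −0.39 and −0.35.

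Promoter sequences from RefSeq (GRCh38.p14), 250 bases before an annotated start and written 5′ to 3′ on the gene's strand, were searched on both strands for 4 motifs. These were the cell cycle homology region (CHR; TTTGAA or TTCGAA), the CCAAT box, E2F sites (TTTGGCGC, TTTCGCGC, TTTCCCGC or TTCCCGCC) and the p53 half-site by its consensus. Of all 35116 such windows 14.3% held a CHR match, 32.0% a CCAAT match, 4.3% an E2F match and 5.6% a p53 half-site. The table held 11 windows for 8 of the 10 genes and no entry for WRN and RECQL4. The windows of the B-type lamin genes, which were lower with ΔNp53:WTp53 than with WTp53, are shown with matches in capitals. LMNB2 (chr19:2456960-2457209, minus strand) held 1 CHR match at −246 to −241 relative to the start. LMNB1 has 2 windows: the upstream one (chr5:126776373-126776622, plus strand) held no match, and the downstream one (chr5:126776886-126777135) held 1 CCAAT match at −138 to −134. A match describes letters and is not evidence of binding.
LMNB2: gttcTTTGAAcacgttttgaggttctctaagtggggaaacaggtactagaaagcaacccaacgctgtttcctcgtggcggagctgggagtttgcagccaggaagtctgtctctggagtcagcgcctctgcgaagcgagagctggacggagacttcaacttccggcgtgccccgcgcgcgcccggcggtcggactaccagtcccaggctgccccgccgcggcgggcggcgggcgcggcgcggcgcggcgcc
LMNB1 upstream: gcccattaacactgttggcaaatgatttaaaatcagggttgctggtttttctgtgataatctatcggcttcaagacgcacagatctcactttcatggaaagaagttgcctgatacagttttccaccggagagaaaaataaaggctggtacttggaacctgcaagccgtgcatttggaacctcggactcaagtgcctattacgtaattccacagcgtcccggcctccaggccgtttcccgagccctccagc
LMNB1 downstream: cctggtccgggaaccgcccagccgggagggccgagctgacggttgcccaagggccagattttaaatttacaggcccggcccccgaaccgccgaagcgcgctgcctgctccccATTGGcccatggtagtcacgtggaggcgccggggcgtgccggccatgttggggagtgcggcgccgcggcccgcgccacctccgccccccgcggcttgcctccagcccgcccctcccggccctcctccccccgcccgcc

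ZMPSTE24, the protease that matures prelamin A, fell with every p53 construct, in the opposite direction to LMNA. Its values were 9.80, 9.91 and 9.91 with vector, 9.51, 9.59 and 9.34 with WTp53 and 9.48, 9.43 and 9.40 with ΔNp53:WTp53. None of the p53 arrays overlapped the vector arrays. The change was −0.40 ± 0.07 (limma adjusted p = 2.13e-04, 1.32-fold lower) with WTp53 and −0.44 ± 0.07 (limma adjusted p = 7.37e-05, 1.35-fold lower) with ΔNp53:WTp53. The constructs overlapped and differed by −0.04 ± 0.07 (95% interval −0.19 to 0.11, limma adjusted p = 0.764).

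The second set gave 11.07, 10.99 and 10.88 with vector for ZMPSTE24, 10.68, 10.58 and 10.65 with WTp53 and 10.55, 10.46 and 10.52 with tethered WTp53. Each group lay below the one before it without overlap. The changes against vector were −0.34 ± 0.07 (limma adjusted p = 0.00228, 1.27-fold lower) and −0.47 ± 0.07 (limma adjusted p = 7.22e-05, 1.39-fold lower). Tethered WTp53 and WTp53 differed by −0.13 ± 0.07 (95% interval −0.28 to 0.02, limma adjusted p = 0.295). The call of ZMPSTE24 against vector held in all 28 alternatives for each construct of the first set and all 27 for each of the second.

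BANF1 encodes barrier-to-autointegration factor, which binds DNA and LEM-domain proteins of the nuclear envelope. It read 9.30, 9.21 and 9.19 with vector, 9.36, 9.31 and 9.26 with WTp53 and 9.22, 9.03 and 8.85 with ΔNp53:WTp53. The ΔNp53:WTp53 arrays lay below the WTp53 arrays and overlapped the vector arrays. BANF1 changed by −0.28 ± 0.08 against WTp53 (limma adjusted p = 0.0282, 1.21-fold lower) and by −0.20 ± 0.08 against vector (limma adjusted p = 0.0478). The call against WTp53 held in 21 of 28 alternatives; it was lost without the ΔNp53:WTp53 array of experiment 4 (0.0697) or 5 (−0.19, 0.12) and without the WTp53 array of experiment 0 (0.0824) or 4 (0.0705). The call against vector held in 8 of 28 alternatives and was lost in 16 of the 18 fits that left out 1 array (adjusted p 0.0508 to 0.262), with a change of −0.11 without the ΔNp53:WTp53 array of experiment 5.

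BANF1 read 11.46, 11.41 and 11.48 with vector in the second set, 11.56, 11.53 and 11.63 with WTp53, and 11.39, 11.23 and 11.39 with tethered WTp53. WTp53 arrays were the highest and tethered arrays the lowest, without overlap. Tethered WTp53 differed from WTp53 by −0.24 ± 0.08 (95% interval −0.41 to −0.07, limma adjusted p = 0.0733) and from vector by −0.11 ± 0.08 (limma adjusted p = 0.336). The former passed without the ΔNp53:WTp53 array of experiment 0 (0.0187) or 5 (0.0289). BANF1 has a further probe set, and it did not show these changes. There ΔNp53:WTp53 against WTp53 gave −0.05 ± 0.07 (limma adjusted p = 0.745 over 33297 probe sets) and tethered WTp53 against WTp53 gave −0.02 ± 0.07 (0.902). With the mean of both probe sets the fall with ΔNp53:WTp53 against WTp53 was −0.16 (limma adjusted p = 0.131).

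**Figure D3:**
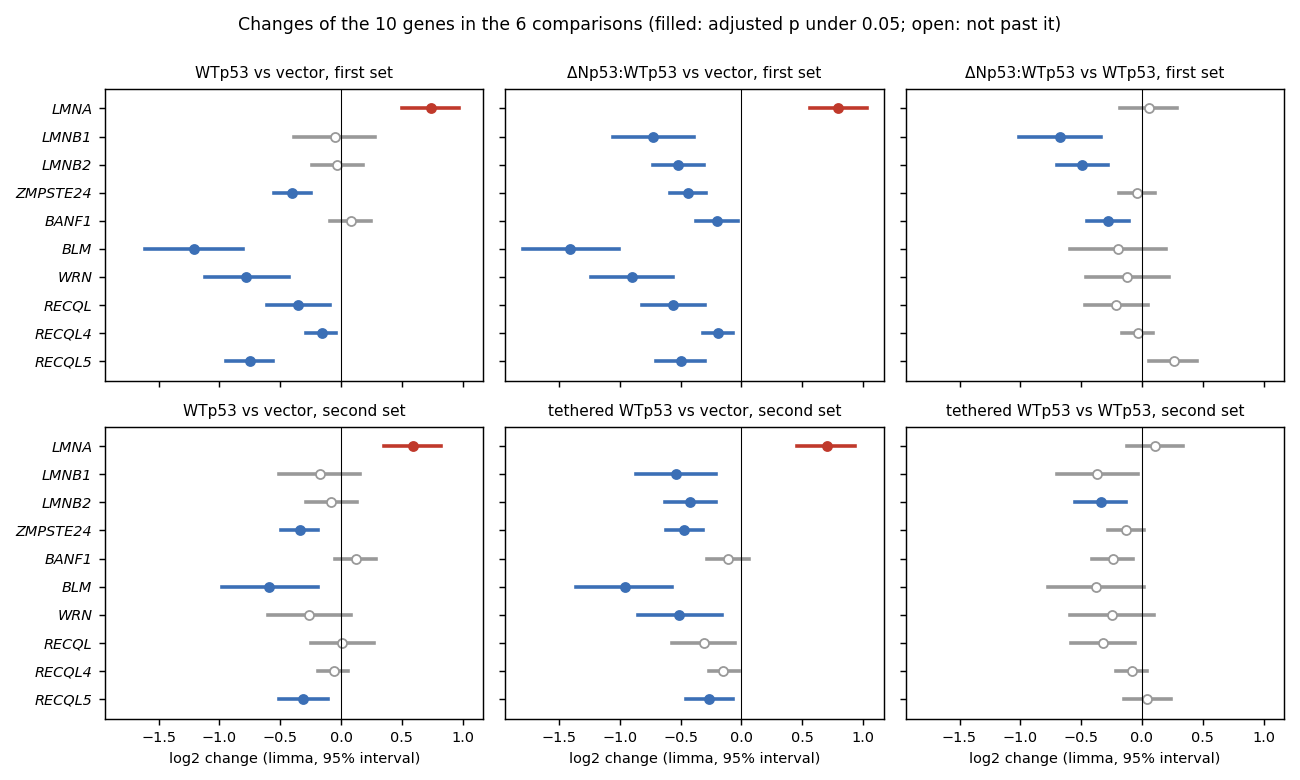
Log2 change of each of the 10 genes with its 95% interval from the limma fit in the 6 comparisons within sets; n = 3 arrays per group and filled points passed an adjusted p of 0.05. LMNA lies between 0.59 and 0.79 in the 4 comparisons with vector, and BLM between −1.41 and −0.59. In the contrast of ΔNp53:WTp53 with WTp53, LMNB1 lies at −0.67 and LMNB2 at −0.49, while WTp53 against vector leaves them at −0.05 and −0.03.

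All 5 RecQ helicases fell with either p53 construct in the first set, and BLM changed most. BLM, which dissolves recombination intermediates together with topoisomerase III alpha, read 6.58, 6.54 and 6.67 with vector, 5.55, 5.35 and 5.26 with WTp53 and 5.87, 5.00 and 4.71 with ΔNp53:WTp53. Every p53 array lay below every vector array, and the ΔNp53:WTp53 arrays ran from above to below the WTp53 range. The change against vector was −1.21 ± 0.19 (limma adjusted p = 5.31e-05, 2.31-fold lower) with WTp53 and −1.41 ± 0.19 (limma adjusted p = 1.08e-05, 2.65-fold lower) with ΔNp53:WTp53. The constructs differed by −0.20 ± 0.19 (95% interval −0.59 to 0.20, limma adjusted p = 0.548), with 0.32, −0.35 and −0.55 in experiments 0, 4 and 5. For BLM that difference depended on single ΔNp53:WTp53 arrays: it was −0.54 (limma adjusted p = 4.01e-04) without experiment 0 and 0.05 (0.89), with the sign turned, without experiment 5.

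BLM in the second set read 8.62, 8.70 and 8.63 with vector, 8.05, 8.06 and 8.08 with WTp53 and 7.63, 7.78 and 7.65 with tethered WTp53. The 3 groups stood in that order without overlap. The changes against vector were −0.59 ± 0.19 (limma adjusted p = 0.036, 1.5-fold lower) with WTp53 and −0.96 ± 0.19 (limma adjusted p = 7.12e-04, 1.95-fold lower) with tethered WTp53. The WTp53 call was lost without any 1 of the 6 arrays compared (adjusted p 0.0812 to 0.104). Tethered WTp53 against WTp53 gave −0.38 ± 0.19 (95% interval −0.77 to 0.02, limma adjusted p = 0.235), with an adjusted p of 2.84e-04 in a limma fit of the second set alone and 0.00485 without the ΔNp53:WTp53 array of experiment 0.

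The BLM window (chr15:90717096-90717345, plus strand) is shown because BLM had the largest fall of the 10 genes in each comparison with vector. It held 3 CCAAT matches (−141 to −137, −46 to −42 and −21 to −17), 1 E2F match (−75 to −68) and 1 p53 half-site match (−10 to −1), all in capitals, and no CHR match. Among the other genes LMNA had 1 CCAAT and 2 overlapping E2F matches in 1 window, RECQL had 5 CCAAT matches and RECQL5 had 1. The windows of BANF1 and ZMPSTE24 held none of the 4 motifs.
BLM: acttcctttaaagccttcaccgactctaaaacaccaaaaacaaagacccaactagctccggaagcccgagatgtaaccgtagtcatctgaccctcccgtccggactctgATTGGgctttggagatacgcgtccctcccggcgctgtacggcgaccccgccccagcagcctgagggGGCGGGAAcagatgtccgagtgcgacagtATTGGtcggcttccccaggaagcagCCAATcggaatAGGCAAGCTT

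WRN, a helicase that also carries an exonuclease domain, read 6.32, 6.51 and 6.53 with vector, 5.90, 5.55 and 5.56 with WTp53 and 6.04, 5.47 and 5.15 with ΔNp53:WTp53. All p53 arrays were below the vector arrays, and in both p53 groups experiment 0 was the highest. WRN changed by −0.78 ± 0.16 (limma adjusted p = 8.29e-04, 1.72-fold lower) with WTp53 and by −0.90 ± 0.16 (limma adjusted p = 2.02e-04, 1.87-fold lower) with ΔNp53:WTp53. The constructs differed by −0.12 ± 0.16 (95% interval −0.46 to 0.22, limma adjusted p = 0.691), but WRN by −0.37 (0.036) without the ΔNp53:WTp53 array of experiment 0 and by 0.08, with the sign turned, without that of experiment 5.

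The second set gave 7.70, 7.87 and 7.91 with vector for WRN, 7.58, 7.54 and 7.58 with WTp53, and 7.14, 7.46 and 7.36 with tethered WTp53. The groups did not overlap. The fall passed with tethered WTp53 (−0.51 ± 0.16, limma adjusted p = 0.0225, 1.42-fold) but not with WTp53 (−0.26 ± 0.16, limma adjusted p = 0.332). In limma fits of the second set alone and of those 2 groups alone the latter passed (0.0245 and 0.0094), as it did with array weights (0.00737). The tethered call was lost without the tethered array d (−0.42, adjusted p = 0.106) and without vector array e (0.0652) or f (0.0792). Tethered WTp53 and WTp53 differed by −0.25 ± 0.16 (95% interval −0.59 to 0.10, limma adjusted p = 0.386), which passed with the second set alone (0.0361) and with array weights (−0.28, 0.0122).

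RECQL, also called RECQ1, read 9.60, 9.34 and 9.44 with vector, 9.31, 9.10 and 8.92 with WTp53 and 9.26, 8.78 and 8.67 with ΔNp53:WTp53. Experiment 0 was the highest array in all 3 groups, and the p53 arrays were below the vector arrays. The change was −0.35 ± 0.12 (limma adjusted p = 0.0294, 1.27-fold lower) with WTp53 and −0.56 ± 0.12 (limma adjusted p = 0.00112, 1.47-fold lower) with ΔNp53:WTp53. The WTp53 call was lost in 6 of 28 alternatives, 4 of them without vector array 0 (−0.28, 0.114) or 5 (0.0559) or WTp53 array 4 (0.0677) or 5 (−0.25, 0.146). The constructs differed by −0.21 ± 0.12 (95% interval −0.47 to 0.05, limma adjusted p = 0.287), but RECQL by −0.39 (0.00573) without the ΔNp53:WTp53 array of experiment 0 and by −0.09 (0.687) without that of experiment 5.

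RECQL in the second set did not change with WTp53 beyond the shared spread: it read 9.52, 9.54 and 9.60 with vector and 9.54, 9.60 and 9.56 with WTp53, a difference of 0.01 ± 0.12 (95% interval −0.25 to 0.27, limma adjusted p = 0.97). Tethered WTp53 arrays read 9.24, 9.27 and 9.23, below all the others. That difference was −0.31 ± 0.12 from vector (limma adjusted p = 0.0649) and −0.32 ± 0.12 from WTp53 (limma adjusted p = 0.112), neither of which passed. In a limma fit of the second set alone the adjusted p was 7.17e-05 and 2.53e-04, and without the ΔNp53:WTp53 array of experiment 0, which is in neither comparison but in the shared spread, it was 0.00769 and 0.0147. The change from vector also passed without the ΔNp53:WTp53 array of experiment 5 (0.0393) or the first-set WTp53 array of experiment 0 (0.0497).

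RECQL4, which acts in replication initiation, had the smallest first-set changes among the helicases. It read 6.15, 6.14 and 6.08 with vector, 5.91, 5.90 and 6.07 with WTp53 and 5.88, 5.93 and 5.97 with ΔNp53:WTp53. The vector arrays lay above the p53 arrays, with the WTp53 array of experiment 5 the nearest to them. The changes were −0.16 ± 0.06 (limma adjusted p = 0.033, 1.12-fold lower) and −0.19 ± 0.06 (limma adjusted p = 0.0115, 1.14-fold lower). The WTp53 call held in 19 of 28 alternatives. It was lost with the experiment as a block (adjusted p = 0.0531), with the first set or the 2 groups alone (0.161 and 0.153), with an intensity trend (0.0512) and without experiment 0 (−0.12, 0.144). Without vector array 0 or 4 it was lost too (0.0808 and 0.0833), as without WTp53 array 0 or 4 (0.107 and 0.117). The ΔNp53:WTp53 call held in 25 of 28 alternatives and was lost without experiment 0 (−0.16, adjusted p = 0.0585). The constructs differed by −0.03 ± 0.06 (limma adjusted p = 0.788). In the second set RECQL4 ran from 8.37 to 8.46 with vector, 8.33 to 8.41 with WTp53 and 8.26 to 8.30 with tethered WTp53. None of its 3 changes passed (limma adjusted p = 0.562, 0.0665 and 0.425). The tethered change against vector was called in 5 of 27 alternatives. These were limma fits of the second set alone (0.0146) or the 2 groups alone (0.0249), arrays centred on their medians (0.012) and array weights (0.00763). The last left out the first-set WTp53 array of experiment 5 (0.0427).

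RECQL5 was the only helicase of the 5 that read higher with ΔNp53:WTp53 than with WTp53 in all 3 experiments. It was 6.52, 6.70 and 6.60 with vector, 6.05, 5.82 and 5.70 with WTp53 and 6.26, 6.13 and 5.93 with ΔNp53:WTp53. The p53 arrays lay below the vector arrays, and the 2 p53 groups overlapped. RECQL5 changed by −0.75 ± 0.09 with WTp53 (limma adjusted p = 5.14e-06, 1.69-fold lower) and by −0.50 ± 0.09 with ΔNp53:WTp53 (limma adjusted p = 2.82e-04, 1.41-fold lower). The difference between constructs was 0.26 ± 0.09 (limma adjusted p = 0.0785), with 0.21, 0.31 and 0.24 in experiments 0, 4 and 5. With the experiment as a block it passed (adjusted p = 0.0469), as it did without the ΔNp53:WTp53 array of experiment 5 (0.34, 0.0279) or the WTp53 array of experiment 0 (0.35, 0.0191).

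RECQL5 in the second set read 7.95, 8.12 and 8.01 with vector, 7.65, 7.76 and 7.74 with WTp53 and 7.73, 7.81 and 7.74 with tethered WTp53. Both p53 groups were below vector and overlapped each other. The changes against vector were −0.31 ± 0.09 (limma adjusted p = 0.0263, 1.24-fold lower) and −0.27 ± 0.09 (limma adjusted p = 0.0356, 1.20-fold lower). Each was lost in 5 of 27 alternatives that left out 1 array: for WTp53, vector e or f or WTp53 d, e or f (adjusted p 0.052 to 0.118), and for tethered WTp53, vector e or f or any tethered array (0.0535 to 0.139). Tethered WTp53 and WTp53 differed by 0.04 ± 0.09 (95% interval −0.15 to 0.24, limma adjusted p = 0.834).

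The WTp53 change against vector was measured in both sets, and the difference of the 2 changes was tested. Of the 10 genes 1 was called, RECQL5, with a background of 12.5% (5.93% higher and 6.55% lower). Its fall was greater in the first set, by a difference of −0.44 ± 0.13 (limma adjusted p = 0.038), which lost its call without any 1 of 10 arrays (adjusted p 0.0502 to 0.101). BLM, WRN and RECQL gave −0.62 ± 0.27, −0.52 ± 0.23 and −0.36 ± 0.17, which did not pass (limma adjusted p = 0.134, 0.149 and 0.183). Without the ΔNp53:WTp53 array of experiment 0 these 3 had adjusted p of 0.00165, 0.0249 and 0.0414, and with the experiment as a block RECQL passed (−0.36, adjusted p = 0.038). LMNA and ZMPSTE24 gave 0.15 ± 0.16 and −0.05 ± 0.10 (limma adjusted p = 0.565 and 0.772), and LMNA 0.34 without the first-set vector array of experiment 0 (0.0181). Over all genes the SD of the WTp53 changes was 0.54 in the first set and 0.33 in the second. The sets also differ in the scale of their values and may have been normalised apart, which cannot be told apart from the experiments.

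Genes related to these proteins were counted whole from lists. Of 8 genes of prenylation and lamin processing 7 were measured, and FNTB was not. With WTp53 against vector in the first set 0 rose and 2 fell (all genes 21.6% and 22.1%). The median was −0.02 against 0.02 over all genes. Those 2 were PGGT1B, the beta subunit of a protein prenyltransferase (−1.20 ± 0.10, limma adjusted p = 5.62e-08), and GGPS1, which makes an isoprenoid donor of prenylation (−0.38 ± 0.09, limma adjusted p = 0.00215). FNTA and FDPS did not pass there (−0.01 ± 0.08 and 0.16 ± 0.11, limma adjusted p = 0.954 and 0.242). With ΔNp53:WTp53 against vector 0 rose and 3 fell (all genes 21.1% and 25.7%). Against vector in the second set 0 rose and 1 fell with WTp53 (all genes 10.5% and 9.03%). With tethered WTp53 1 rose and 3 fell (all genes 15.1% and 18.6%). PGGT1B also fell in the second set, by −0.56 ± 0.10 with WTp53 and −0.97 ± 0.10 with tethered WTp53 (limma adjusted p = 5.58e-04 and 1.08e-06). ICMT, which methylates the prenylated C-terminus, fell against WTp53 by −0.36 ± 0.09 with ΔNp53:WTp53 and −0.30 ± 0.09 with tethered WTp53 (limma adjusted p = 0.0139 and 0.0428).

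Other proteins of the nuclear envelope moved in both directions. Of 20 listed and measured, 6 rose and 8 fell with WTp53 and 7 rose and 9 fell with ΔNp53:WTp53 against vector in the first set, with medians of 0.01 and −0.12 beside 0.02 and 0.01 over all genes. Over all genes 21.6% rose and 22.1% fell with WTp53 there, and 21.1% and 25.7% with ΔNp53:WTp53. Against vector in the second set the counts were 1 and 3 with WTp53 (all genes 10.5% and 9.03%) and 4 and 8 with tethered WTp53 (15.1% and 18.6%). TOR1A, the ATPase torsin-1A of the perinuclear space, rose by 0.71 ± 0.07 and 0.81 ± 0.07 in the first set (limma adjusted p = 4.87e-07 and 9.68e-08). LEMD3, an inner nuclear membrane protein, changed by −1.20 ± 0.12 with WTp53 (limma adjusted p = 7.49e-07). SYNE2, which encodes nesprin-2, rose by 1.29 ± 0.14 with ΔNp53:WTp53 and by 1.15 ± 0.14 with tethered WTp53 against vector (limma adjusted p = 9.65e-07 and 6.62e-06). LBR, the lamin B receptor, changed by −0.29 ± 0.06 with ΔNp53:WTp53 against WTp53 (limma adjusted p = 0.00438), where 4 of the 20 rose and 3 fell (all genes 7.11% and 7.51%). TMEM43, an inner nuclear membrane protein, rose there by 0.31 ± 0.06 (limma adjusted p = 0.00236). SYNE1, which encodes nesprin-1, changed by −1.27 ± 0.21 with WTp53 in the second set (limma adjusted p = 3.49e-04).

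Among partners of the RecQ helicases more genes fell than rose in the 4 comparisons with vector, and with WTp53 in the second set the numbers were small. Of 21 listed 20 were measured; 2 rose and 10 fell with WTp53 and 1 rose and 14 fell with ΔNp53:WTp53 in the first set, with medians of −0.31 and −0.35 (all genes 0.02 and 0.01). Over all genes 22.1% and 25.7% fell and 21.6% and 21.1% rose in these 2 comparisons. The second set had 1 rise and 3 falls with WTp53, and 2 rose and 11 fell with tethered WTp53, with medians of −0.18 and −0.33 (all genes −0.02 and 0.00). The shares of all genes were 10.5% higher and 9.03% lower, and 15.1% higher and 18.6% lower. FANCM, a translocase at stalled forks, changed by −1.37 ± 0.19 and −0.84 ± 0.19 with WTp53 in the first and second set (limma adjusted p = 1.90e-05 and 0.00499). DNA2, a nuclease of end resection, changed by −1.07 ± 0.12 with ΔNp53:WTp53 and −0.74 ± 0.12 with tethered WTp53 against vector (limma adjusted p = 1.53e-06 and 1.24e-04). WRNIP1, which binds WRN, rose by 0.62 ± 0.08 with WTp53 and 0.89 ± 0.08 with ΔNp53:WTp53 (limma adjusted p = 1.29e-05 and 2.50e-07). Against WTp53, ΔNp53:WTp53 raised 1 and lowered 4 (all genes 7.11% and 7.51%). Among those lowered was RPA2, a subunit of replication protein A (−0.67 ± 0.13, limma adjusted p = 0.00235).

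Proliferation genes are given beside the B-type lamins, and for both the first-set constructs differed least in experiment 0. Of 25 listed cell cycle genes, ΔNp53:WTp53 against WTp53 lowered 16 and raised 0 (all genes 7.51% and 7.11%), with a median of −0.69 against −0.01 over all genes. By experiment that median was −0.15 in experiment 0, −0.82 in 4 and −1.12 in 5, where LMNB1 read −0.12, −0.87 and −1.04. A small difference in experiment 0 was not particular to these genes. The median of the 10 genes was −0.03, −0.22 and −0.33 and that of the RecQ partners −0.00, −0.21 and −0.21. That of the nuclear envelope list did not fall in experiments 4 and 5 (−0.02, 0.04 and 0.04). Tethered WTp53 against WTp53 lowered 3 of 25 and raised 0 (all genes 5.84% and 4.24%), with a median of −0.38. Over arrays matched by letter that median ranged from −0.40 to −0.37, which may measure technical spread only. With WTp53 against vector 2 rose and 7 fell in the first set (all genes 21.6% and 22.1%). In the second set 1 rose and 1 fell with WTp53 (all genes 10.5% and 9.03%). ΔNp53:WTp53 against vector lowered 23 and raised 1 (all genes 25.7% and 21.1%), and tethered WTp53 against vector lowered 15 and raised 1 (18.6% and 15.1%). BIRC5, the mitotic regulator survivin, changed by −0.93 ± 0.11 with ΔNp53:WTp53 against WTp53 (limma adjusted p = 5.41e-05). The part of proliferation in the lamin and helicase results was not tested.

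**Figure D4:**
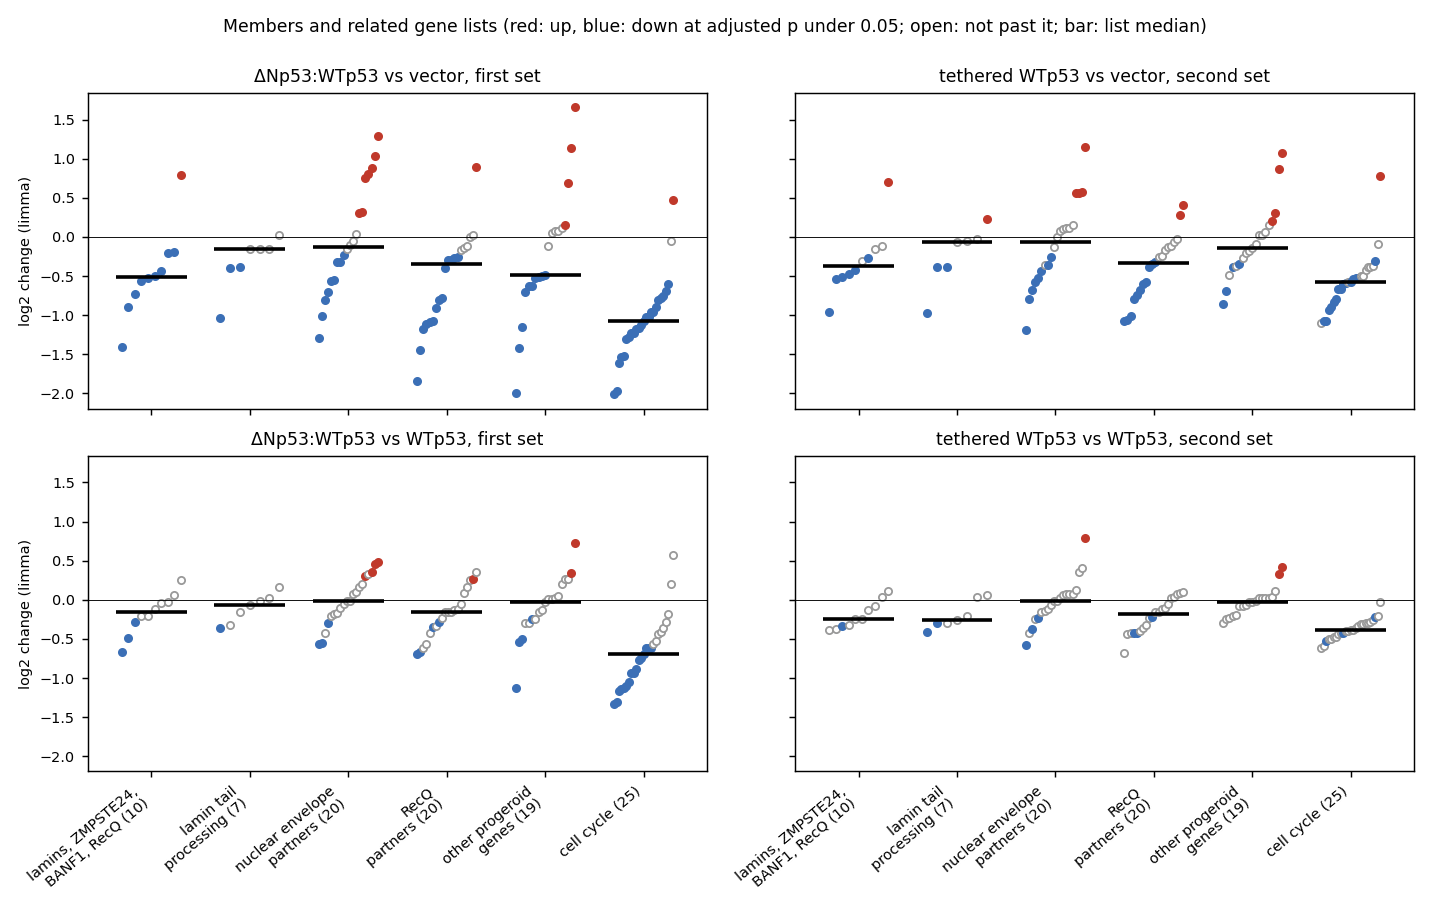
Log2 changes of the genes of each list (numbers measured in parentheses) in 4 comparisons, ΔNp53:WTp53 and tethered WTp53 each against vector and against WTp53; each point is a gene, red or blue where it passed an adjusted p of 0.05 upward or downward and open where not, and the bar is the list's median. The cell cycle list lies lowest for ΔNp53:WTp53 against vector, with a median of −1.08, and the 10 genes have a median of −0.51 there.

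For each member called with a change of at least 1.5-fold, the genes with the most similar values were found by the root-mean-square difference over the 18 arrays, after centring each gene on its mean in each set. Nearest to LMNA was CAPN1 at 0.07 log2 units, followed by RASSF3 and MFGE8 at 0.10 each, where LMNA itself varied by 0.35. Nearest to LMNB1 were CCNA2 and CDC25B at 0.07 each and ZWILCH at 0.08, against its own 0.33. BLM, which varied by 0.56, had ETAA1 and PARP2 at 0.09 and POC5 at 0.10. WRN, which varied by 0.37, had MAK16 at 0.08 and PRRC2A and TRNT1 at 0.09. RECQL5, which varied by 0.26, had ZMYM2 and PFKM at 0.07 and ACIN1 at 0.08. CCNA2 is a listed cell cycle gene and changed by −0.74 with ΔNp53:WTp53 against WTp53, beside −0.67 for LMNB1. Because CCNA2 was picked for its likeness to LMNB1 on these same arrays, the closeness of these changes follows from the selection.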

How the data were processed

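RNA of 18 transfected cultures was measured on Affymetrix Gene arrays. The deposited values are log2 intensities, normalised with RMA in Affymetrix Expression Console per the submitters' processing notes; versions and genome build are not given in the sources used here. Quantile steps within RMA force like distributions on the arrays of a set, so changes are relative to the other genes. The 2 sets carry 6 and 2 decimals. Of 33297 probe sets 19460 have 1 symbol, 1754 several, and 12083 are not listed in the probe table; the highest-mean probe set stood for each of 769 genes with several, and 18417 genes were tested. Dim genes were kept.

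The model, from limma 3.58.1 under R 4.3.3, had 1 mean per group over all 18 arrays (12 residual degrees of freedom), two-sided, for 6 comparisons within sets and 2 differences of effects. The smallest exact permutation p for 3 arrays against 3 is 0.1, so no exact test could pass. On simulated data over 18417 genes, 82.0% of genes changed 1.5-fold and 20.0% of those changed 1.2-fold were called for ΔNp53:WTp53 against WTp53. For tethered WTp53 against WTp53 these were 76.0% and 12.0%. The simulated arrays were independent, had 1 spread per gene in every group and had few changed genes. In the data the spread differed between groups and first-set arrays of an experiment were correlated. The simulated shares therefore do not give the recovery in these comparisons.

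Residuals of same-experiment arrays correlated at 0.11 to 0.57 in the first set, 9 of 9 over 0.1, so experiments 0, 4 and 5 pair the arrays and blocked values are given where a call changes. Those of the second set spanned −0.04 to 0.13, and the letters were used as labels only.

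Named were all 10 members in every comparison, from each list up to 2 genes per comparison with the smallest p past the threshold, and 3 nearest genes of members called at 1.5-fold or more. The members and lists were chosen with earlier results of these data known. The alternatives were other sets of arrays in the fit, a replicate block, a filter on dim genes, the mean of probe sets, an intensity trend, other scalings, array weights and arrays left out. Promoters came from a RefSeq table (GRCh38.p14). The probe set of the transfected gene is not reported here.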

Additional observations from a re-analysis of the deposited data

Results flagged for a closer look

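The fall of RECQL5 with WTp53 differed between the sets, by a test of the difference of the 2 changes. The first-set change minus the second-set change was −0.44 ± 0.13 log2 units (limma adjusted p = 0.038). It came from −0.75 in the first set, where all 3 experiments were lower with WTp53 (−0.47, −0.89 and −0.90). The second-set change was −0.31, and arrays matched by letter, a label only, were all lower with WTp53 too (−0.30, −0.36 and −0.27). Over the alternatives the difference between the sets ran from −0.59 to −0.36 and the adjusted p from 6.54e-04 to 0.101, with a call in 16 of 26. It was lost without any 1 of 10 arrays: first-set vector 4 or 5, first-set WTp53 4 or 5, second-set vector d or f, WTp53 d, e or f, and tethered d (adjusted p 0.0502 to 0.101). Groups of 3 arrays were too small for a search for single outlying arrays.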

How the results depend on the processing

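No alternative reversed the direction of a called change; uncalled differences of BLM and WRN between ΔNp53:WTp53 and WTp53 turned sign without the ΔNp53:WTp53 array of experiment 5. Counts below are members called of 10, and all-gene calls are out of 18417. For ΔNp53:WTp53 against WTp53 the count of 3 became 0 with the first set fitted alone and 0 with only the 2 groups. It was 6 with array weights and 6 without experiment 0. All-gene calls were 2693 in the main fit and 449, 96, 5626 and 5450 in these settings. When 1 array was left out the count ran from 2 to 6 (all genes 1785 to 4816). The 6 came without the ΔNp53:WTp53 array of experiment 0. For WTp53 against vector in the second set the count of 4 became 7 with only the 2 groups and 7 with array weights. All-gene calls went from 3603 to 7061 and 7767. Leaving out 1 array gave 2 to 4 (all genes 2602 to 4671). For tethered WTp53 against WTp53 the count of 1 became 6 with the set alone, 5 with only the 2 groups and 6 with array weights. All-gene calls went from 1855 to 5970, 5274 and 6618. The count was 2 with arrays centred on their medians and 0 after quantile normalisation. Leaving out 1 array gave 0 to 5 (all genes 797 to 3229). For the difference of the WTp53 effects between sets the count of 1 became 4 with array weights and 5 without experiment 0. All-gene calls went from 2300 to 5646 and 5602. Leaving out 1 array gave 0 to 4 (all genes 1272 to 3931). For the ΔNp53:WTp53 effect minus the tethered effect the count of 0 became 1 with array weights and 1 without experiment 0. All-gene calls went from 544 to 3332 and 2570. Leaving out 1 array gave 0 to 1 (all genes 200 to 1318). The other 3 comparisons with vector gave 5 to 7 (WTp53, first set), 9 to 10 (ΔNp53:WTp53) and 5 to 8 (tethered) with 1 array left out. All-gene calls there were 7101 to 8858, 7625 to 9731 and 5092 to 7049. The cause of these shifts was not tested.

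With the experiment as a replicate block, 74 of 80 results for single genes kept their call, 1 was lost (RECQL4) and 5 were gained (RECQL5, BANF1 and 3 for RECQL); the count for tethered WTp53 against WTp53 became 3 and that for the WTp53 effects between sets 2. In the second set the letters pair nothing by the residual check, so its blocked calls show only that a shared letter changes the spread. Over all genes, ΔNp53:WTp53 against WTp53 called 2693, 449 with the first set alone, 96 with the 2 groups alone and 4816 without the ΔNp53:WTp53 array of experiment 0; tethered WTp53 against WTp53 called 1855, and 5970 with the second set alone. Array number limits the precision, and no signal over background was derived.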

Other observations

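Genes of other progeroid syndromes, besides the 10 described, were called in both directions in the 4 comparisons with vector. Of 21 listed 19 were measured. With WTp53 against vector in the first set 5 rose and 6 fell (all genes 21.6% and 22.1%), with a median of 0.01 beside 0.02 over all genes, and with ΔNp53:WTp53 4 rose and 10 fell (21.1% and 25.7%), with a median of −0.49 beside 0.01. In the second set 3 rose and 3 fell with WTp53 (all genes 10.5% and 9.03%) and 4 rose and 4 fell with tethered WTp53 (15.1% and 18.6%), numbers near those shares. CAV1, which encodes the membrane protein caveolin-1, rose by 1.66 ± 0.10 with ΔNp53:WTp53 and by 1.07 ± 0.10 with tethered WTp53 against vector (limma adjusted p = 2.77e-09 and 6.23e-07), and it exceeded WTp53 by 0.73 ± 0.10 and 0.42 ± 0.10 (limma adjusted p = 2.33e-04 and 0.0153). SPRTN, a protease of DNA-protein crosslinks, rose by 1.14 ± 0.09 and 0.87 ± 0.09 against vector with the same constructs (limma adjusted p = 6.61e-08 and 2.77e-06). GORAB, a Golgi protein gene, changed by −2.20 ± 0.21 with WTp53 in the first set (limma adjusted p = 3.52e-07). ERCC4, the XPF endonuclease subunit, changed by −1.42 ± 0.12 with WTp53 in the first set and −0.71 ± 0.12 in the second (limma adjusted p = 7.81e-08 and 3.96e-04).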
